A study of Sus scrofa with 12 samples.

Results

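Vitamin D made in skin or taken up from feed is not active until it has been hydroxylated on its side chain in the liver and again in the kidney. The genes described here are CYP2R1, CYP2D25 and CYP27A1, which encode the candidate vitamin D 25-hydroxylases of pig liver, GC, which encodes the vitamin D binding protein of plasma, and VDR, which encodes the nuclear receptor of the active hormone. They were chosen by symbol, and all 5 symbols were found among the 31692 distinct gene identifiers of the mRNA tables. Liver was taken from 3 Jinhua (JH) pigs, a slow-growing Chinese breed with high fat deposition, and from 3 Landrace (LD) pigs, a fast-growing lean breed that served as the control. All 6 pigs were uncastrated males of 70 days of age, no agent or genetic change is named for any of them, and each pig gave 1 mRNA library. The breed is the only labelled difference, and the sources used here do not say whether the pigs of the breeds shared a herd, a feed or exposure to sunlight.

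CYP2R1 is a microsomal cytochrome P450 and is regarded in humans and mice as the main vitamin D 25-hydroxylase. CYP2D25 is the microsomal enzyme that was isolated from pig liver through this activity. CYP27A1 is a mitochondrial P450 best known for hydroxylating the side chain of cholesterol on the way to bile acids, and it also accepts vitamin D. The 25-hydroxylated product circulates bound to GC, a secreted protein of the albumin family made by hepatocytes. Its further hydroxylation by CYP27B1 yields the ligand of VDR, and CYP24A1 inactivates both forms. VDR is known to be scarce in hepatocytes and better represented in the other cells of the liver, in the gut and in the kidney.

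The deposited values are RPKM, which are scaled to gene length and to the reads of a library, so that levels of different genes can be compared. The read totals that the RPKM are scaled to were recovered from the values and ranged from 5744908 to 7914515. The paper reports more clean reads than this for every library, so these totals are not the number of reads sequenced. Between 16078 and 17076 genes were above 0 in a library. Breeds were compared with limma on log2(RPKM + 0.1), over the 12991 genes that reached 0.5 RPKM in 3 or more libraries. Differences are given as the log2 JH/LD ratio from this fit with its standard error (SE), a scale on which the pseudocount shrinks the ratio of low genes. A gene was called when its adjusted p (Benjamini-Hochberg over all tested genes) was below 0.05 and its log2 ratio was beyond 1 in either direction. Exact permutation tests of single values were two-sided, and 0.1 is the smallest p that a design of 3 against 3 allows. The labels do not say whether the pigs were unrelated, so the p-values describe the spread between these 6 samples.

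The libraries carried high levels of the hepatocyte markers ALB and TTR. The summed RPKM of the 7 hepatocyte markers, of which APOB is listed at 0 in every library, was 42087 to 47032 in JH and 61993 to 77956 in LD. ALB made up most of each sum, so the sum is not an even measure of these markers. ALB, SERPINA1, CPS1 and TF were lower in every JH than in every LD library. TTR and HNF4A overlapped between the breeds, and the mean of HNF4A was higher in JH (113 against 97.8 RPKM). The sums were also lower in every JH than in every LD library for the 8 stellate cell markers (60.0 to 90.7 against 177 to 340), for the 4 endothelial markers present (27.6 to 39.0 against 53.7 to 61.6), for the 3 bile duct markers present (1.55 to 2.13 against 5.24 to 9.64) and for the 3 red cell markers (90.2 to 122 against 213 to 393). Taken singly, 5 of the 8 stellate cell markers and 3 of the 4 endothelial markers were lower in every JH library. DCN, DES and RGS5 of the stellate list and STAB2 of the endothelial list overlapped between the breeds. The macrophage and lymphocyte sums overlapped between the breeds and were highest in JH2. The sum of the 5 intestinal markers present was higher in every JH than in every LD library (1.00 to 1.91 against 0.0732 to 0.468). In JH most of this sum was the single gene CDX2. Of the others, LGALS4 had a higher mean in JH, CDH17 and FABP2 had higher means in LD, and SI is listed at 0 throughout. The ribosomal RNA gene RN18S ranged from 1570 RPKM in JH2 to 62257 RPKM in JH3. The part of these differences in the results below was not tested, and in bulk tissue fewer cells of a type and less RNA per cell cannot be told apart.

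The 5 genes fell into a fixed order of level, GC above CYP2D25 above CYP27A1 above CYP2R1 above VDR, which held in each of the 6 libraries. The ranges of neighbours in this order did not overlap over the 6 libraries. GC lay between 2553 and 3056 RPKM and held rank 25 to 30 among all genes of a library. CYP2D25 lay between 836 and 1807 RPKM (rank 39 to 85) and CYP27A1 between 271 and 464 RPKM (rank 166 to 310). CYP2R1 lay between 1.01 and 3.71 RPKM, with a rank of 7461 to 11036. The receptor never exceeded 0.0549 RPKM. The transcripts of the carrier and of both abundant hydroxylases were thus among the leading messages of these livers, while CYP2R1 was in the middle of the range.

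**Figure D1:**
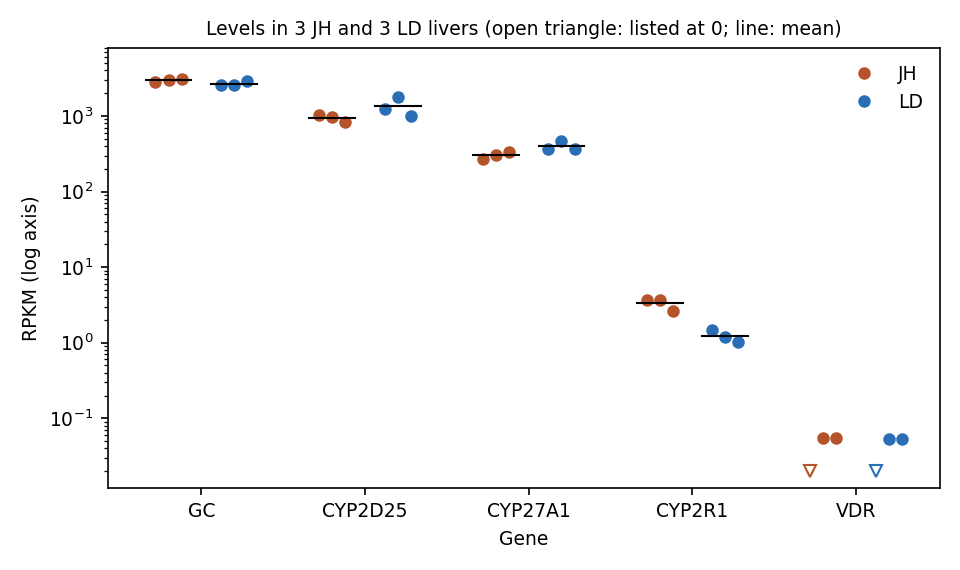
RPKM on a log axis of each gene in the 3 JH and 3 LD libraries, with a point for each library, a line at the breed mean and an open triangle, drawn at an arbitrary height, for a value listed at 0. GC, CYP2D25 and CYP27A1 stand at 271 RPKM or more in every library, CYP2R1 stands between 1.01 and 3.71 RPKM, and only for CYP2R1 and CYP27A1 do the points of the breeds not overlap.

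CYP2R1 was the 1 member called among the 4 that could be tested, beside the 2.39% of all tested genes. It was also the 1 member at an unadjusted p under 0.05, as were 17.9% of all tested genes. For 2 of the 4, CYP2R1 and CYP27A1, the breeds did not overlap, as was so for 23.4% of all tested genes. CYP2R1 was at 3.70, 3.71 and 2.62 RPKM in JH1, JH2 and JH3. In LD it was at 1.46, 1.20 and 1.01 RPKM in LD1, LD2 and LD3. All JH values lay above all LD values, and JH3 stood below the other JH pigs. The mean was 3.34 ± 0.62 RPKM in JH against 1.22 ± 0.23 RPKM in LD (SD, n = 3 each), and the log2 JH/LD ratio was 1.38 (SE 0.29, 95% interval 0.71 to 2.04). This amounts to a fold change of 2.60, with an interval from 1.64 to 4.11. The adjusted p was 0.048 from limma with Benjamini-Hochberg adjustment, just below the limit. Among all tested genes 1.02% were called higher in JH and 10.8% had all JH values above all LD values.

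The reads behind CYP2R1 were few. The deposited values stood for 45, 61 and 43 reads in JH1, JH2 and JH3 and for 22, 20 and 17 reads in LD1, LD2 and LD3, counted on a gene model of 2119 bases. The exact Poisson interval, which covers counting error only, reached down to 1.90 RPKM in JH3 and up to 2.21 RPKM in LD1, so these intervals overlapped. For the pairs of the other JH libraries with any LD library the intervals did not overlap. The coefficient of variation between pigs was 18.7% in JH, where counting alone gives 12.8% to 15.2%, and 18.4% in LD, where counting alone gives 21.3% to 24.3%. With 3 pigs a breed these coefficients are imprecise, and how much the pigs differed beyond counting cannot be read from them. The study also assayed CYP2R1 by qRT-PCR, and that assay was not analysed here.

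**Figure D2:**
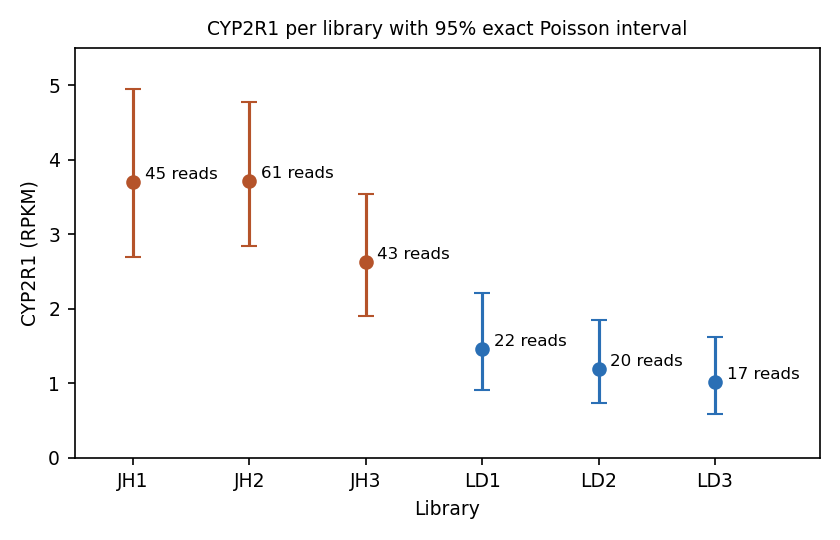
CYP2R1 in RPKM for each library, with the number of reads beside each point and the 95% exact Poisson interval as a bar. The JH libraries stand at 43 to 61 reads and the LD libraries at 17 to 22 reads, and the intervals of JH3 and LD1 overlap.

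The direction of the CYP2R1 difference was kept in every alternative fit, while its call was not. With each library left out in turn its log2 fold change stayed between 1.26 and 1.54, but its adjusted p ranged from 0.0471 to 0.147 and passed only without JH3. JH3 is also the library with the highest RN18S. Blocking on the replicate number gave an adjusted p of 0.0559. With limma's voom on the recovered reads, a fit added after the values were seen, the adjusted p was 0.0508 with a log2 JH/LD ratio of 1.42. The adjusted p was 0.0298 after each library was shifted to the same median and 0.0219 after quantile normalization, with log2 JH/LD ratios of 1.36 and 1.48.

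**Figure D3:**
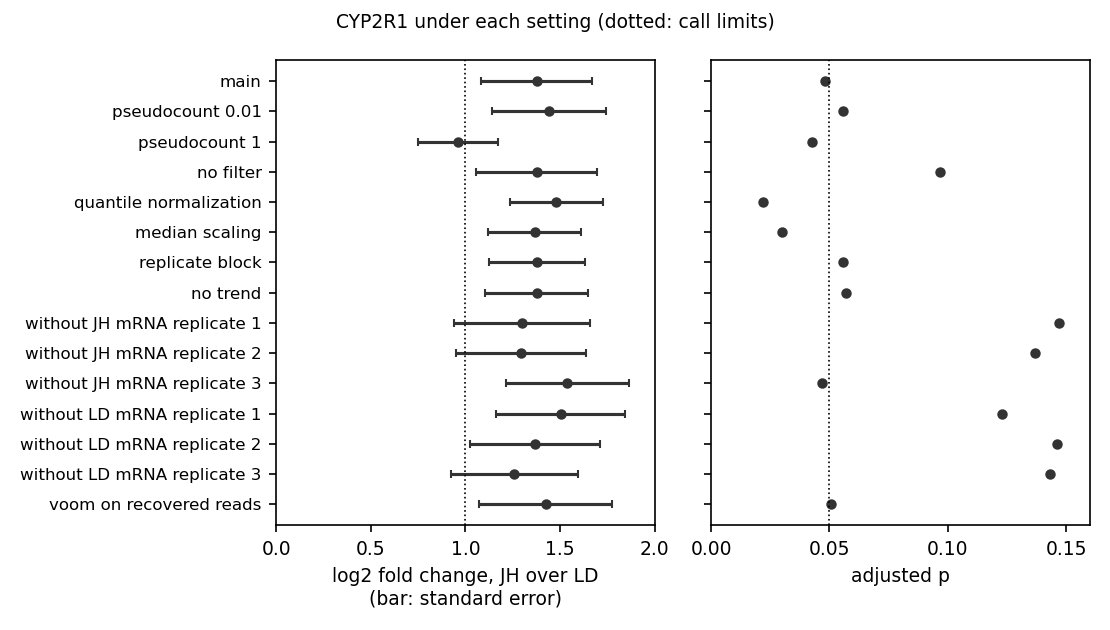
CYP2R1 under the reported fit and each alternative, with the log2 JH/LD ratio and its standard error (SE) on the left and the adjusted p on the right. Dotted lines mark a log2 JH/LD ratio of 1 and an adjusted p of 0.05. The log2 JH/LD ratio stays between 0.96 and 1.54, and the adjusted p moves from 0.0219 to 0.147 across the limit.

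Neither of the abundant hydroxylases was called, and both means were lower in JH. CYP2D25 was at 1033, 957 and 836 RPKM in JH1, JH2 and JH3, and at 1220, 1807 and 997 RPKM in LD1, LD2 and LD3. The breeds overlapped, since LD3 was below JH1, and LD2 stood above all others. The mean was 942 ± 99.4 RPKM in JH against 1341 ± 419 RPKM in LD (SD, n = 3 each). Its log2 JH/LD ratio was -0.47 (SE 0.28, 95% interval -1.11 to 0.17, adjusted p = 0.427 from limma). Reads were plentiful, with 9897 to 23784 per library, so counting error was not the limit. CYP2D25 belongs to a family of close copies whose reads could be split or shared in counting, and its values are uncertain to that extent.

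CYP27A1 was at 271, 309 and 332 RPKM in JH1, JH2 and JH3. In LD it was at 361, 464 and 362 RPKM in LD1, LD2 and LD3. Every JH value lay below every LD value (exact permutation p = 0.1), as was so in the same direction for 12.5% of all tested genes. The mean was 304 ± 30.9 RPKM in JH against 396 ± 59.3 RPKM in LD (SD, n = 3 each), from 1626 to 3833 reads per library on a gene model of 1046 bases. The log2 JH/LD ratio was -0.38 (SE 0.24, 95% interval -0.91 to 0.16) and did not pass the test (adjusted p = 0.447 from limma). The interval leaves room for a fold change of JH over LD anywhere from 0.53 to 1.11.

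Because a ratio of genes within a library does not depend on how the library was scaled, the hydroxylases were also compared with one another inside each pig. CYP27A1 exceeded CYP2R1 by 73.2 to 126 times in the JH libraries and by 247 to 388 times in the LD libraries. CYP2D25 exceeded CYP2R1 by 258 to 319 times in JH and by 834 to 1512 times in LD. The log2 ratio of CYP2R1 to CYP27A1 was -6.52 ± 0.41 in JH against -8.34 ± 0.35 in LD (SD, n = 3 each), a difference of 1.82, and that of CYP2R1 to CYP2D25 differed by 1.92 in the same direction. Both ratios were higher in each of the JH pigs than in any LD pig (exact permutation p = 0.1, adjusted p = 0.16 over 8 such comparisons). The log2 ratio of CYP2D25 to CYP27A1 was 1.63 ± 0.30 in JH against 1.73 ± 0.25 in LD (SD, n = 3 each), and its values overlapped (exact permutation p = 0.7, adjusted p = 0.7).

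The summed RPKM of the 3 hydroxylase genes was 1308, 1270 and 1171 in JH1, JH2 and JH3 and 1582, 2273 and 1359 in LD1, LD2 and LD3. It was thus lower in each of the JH pigs than in any LD pig (exact permutation p = 0.1, adjusted p = 0.16). Of this sum CYP2R1 made up 0.283%, 0.292% and 0.224% in the JH libraries and 0.0924%, 0.0526% and 0.0746% in the LD libraries. Its mean share was 0.266% ± 0.037 in JH against 0.073% ± 0.020 in LD (SD, n = 3 each), and the shares did not overlap (exact permutation p = 0.1, adjusted p = 0.16). CYP2D25 held 75.3% ± 3.79 (SD, n = 3) of the sum in JH and 76.6% ± 3.12 (SD, n = 3) in LD, while the share of CYP27A1 was 24.5% ± 3.82 in JH against 23.3% ± 3.11 in LD (SD, n = 3 each). The direction of these last 2 differences turned when JH3 or LD2 was left out. These are shares of transcripts per length and say nothing about the activity of the enzymes.

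GC, the carrier of vitamin D in plasma, varied least between pigs of a breed among the 4 tested members. It was at 2780, 3038 and 3056 RPKM in JH1, JH2 and JH3, and at 2578, 2553 and 2875 RPKM in LD1, LD2 and LD3. The breeds overlapped through LD3, which was above JH1. The mean was 2958 ± 154 RPKM in JH against 2669 ± 179 RPKM in LD (SD, n = 3 each), with a log2 JH/LD ratio of 0.15 (SE 0.23, 95% interval -0.38 to 0.68, adjusted p = 0.780 from limma). After quantile normalization the log2 fold change was -0.02, so no direction can be given. The coefficient of variation within a breed was 5.21% in JH and 6.72% in LD, against 31.2% for CYP2D25 in LD.

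GC belongs to the same gene family as albumin (ALB), alpha-fetoprotein (AFP) and afamin (AFM), a carrier of vitamin E, and these were compared as a list. None of the 3 was called, as against 2.39% of all tested genes. ALB was at 29866 ± 3267 RPKM in JH against 47923 ± 8861 RPKM in LD (SD, n = 3 each), a log2 JH/LD ratio of -0.67 (SE 0.28, adjusted p = 0.258 from limma). AFM was at 171 ± 22.9 RPKM in JH against 236 ± 15.9 RPKM in LD (SD, n = 3 each), a log2 JH/LD ratio of -0.47 (SE 0.23, adjusted p = 0.318 from limma). For ALB and AFM every JH value lay below every LD value, as was so for 12.5% of all tested genes. AFP overlapped between the breeds, at 0.505 ± 0.169 RPKM in JH against 0.649 ± 0.567 RPKM in LD (SD, n = 3 each). Its log2 JH/LD ratio was -0.10 (SE 0.61, adjusted p = 0.952 from limma). For GC the mean was higher in JH, with overlap. ALB exceeded GC by 9.06 to 12.1 times in the JH libraries and by 14.8 to 20.2 times in the LD libraries.

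VDR was at the limit of what these libraries can show. It was listed at 0 in JH1 and LD1 and stood for 1 read each in JH2, JH3, LD2 and LD3. The 4 reads over 6 libraries were divided evenly, 2 in JH and 2 in LD. A count of 0 allows up to 3 reads, which is 0.222 RPKM in JH1 and 0.179 RPKM in LD1. VDR did not pass the filter on low values, so no fold change is given, and a difference between the breeds was not detectable at this depth. VDR is known to be high in the gut, and markers of gut epithelium were low or at 0. Of the 5 intestinal markers present, SI is listed at 0 in every library and FABP2 in every library but LD3. A 0 in every library, as for SI, need not mean absence, since POR and APOB are listed so as well. CDX2, a transcription factor of the gut epithelium, was at 1.27, 1.14 and 0.806 RPKM in JH1, JH2 and JH3, at 0.0732 and 0.132 RPKM in LD1 and LD2, and is listed at 0 in LD3. It passed the filter on low values only through the JH libraries, so no test of it is given. CDH17 was at 0.0380 RPKM in JH3 and at 0.112 and 0.260 RPKM in LD2 and LD3, and is listed at 0 in the other libraries. LGALS4 had 3 reads in JH1 and 1 read each in JH3 and LD2, and is listed at 0 elsewhere.

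The enzymes that act after the liver step were represented by CYP24A1, the 24-hydroxylase that inactivates vitamin D metabolites. It was at 4.04, 1.83 and 2.33 RPKM in JH1, JH2 and JH3 and at 2.91, 2.86 and 1.63 RPKM in LD1, LD2 and LD3, from 20 to 36 reads per library. Its values overlapped, with a log2 JH/LD ratio of 0.11 (SE 0.37, 95% interval -0.72 to 0.94, adjusted p = 0.906 from limma). CYP24A1 transcripts were thus present in every library, at levels that overlapped those of CYP2R1, beside 0 or 1 read of VDR. CYP27B1, the kidney enzyme of the activating step, is listed at 0 in all libraries. CYP3A22, CYP3A29, CYP3A39 and CYP3A46 are likewise listed at 0, as are POR and APOB, which liver cells use, so a 0 in these tables need not mean that a transcript was absent.

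The wider vitamin D pathway was followed through lists of the genes that supply the precursor, donate electrons, take up the carrier, turn the hormone over, work with the receptor, respond to it or regulate CYP2R1. The lists held 49 genes besides the members, of which 25 were tested, 8 are listed at 0, 5 did not pass the filter and 11 were not analysed here because their symbol did not match. Of the 25 tested genes 1 was called, lower in JH, against 1.36% of all tested genes called in that direction. The number of all genes called rested on the libraries. It was 133 higher and 177 lower in JH, and rose to 169 and 234 without JH3. The counts fell to 51 and 106 without JH1 and to 44 and 101 without JH2. They were 37 and 26 without LD1, 51 and 33 without LD2, and 55 and 61 without LD3. The median log2 JH/LD ratio was -0.31 in these 25 genes and 0.04 in all tested genes. At an unadjusted p under 0.05, 1 of the 25 was higher and 6 were lower in JH, where 8.34% and 9.51% of all tested genes were.

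The called gene was IGFBP3, a carrier of insulin-like growth factors and a known target of VDR. It was at 14.2, 16.9 and 12.8 RPKM in the JH libraries and at 38.3, 60.8 and 32.7 RPKM in the LD libraries. The breeds did not overlap, and LD2 was the highest. Its log2 JH/LD ratio was -1.54 (SE 0.29, adjusted p = 0.0337 from limma), and it was called in 9 of 14 alternative fits. The call was lost without JH1, JH2, LD1 or LD2 and without the variance trend, with an adjusted p of up to 0.114. IGFBP3 is also made by the non-parenchymal cells of the liver. The sums of the stellate cell and endothelial markers, though not each marker, were lower in JH as given above. A link between these was not tested. None of the other 8 tested target genes was called, and their log2 JH/LD ratios ran from -1.11 for SPP1, which encodes osteopontin (adjusted p = 0.248 from limma), to 0.11 for CYP24A1. The calcium channel genes TRPV5 and TRPV6 did not pass the filter. TRPV5 was at 0.263, 0.243 and 0.829 RPKM in JH1, JH2 and JH3, at 0.106 RPKM in LD1, and is listed at 0 in LD2 and LD3. These values stand for 4, 5 and 17 reads in JH1, JH2 and JH3 and for 2 reads in LD1. The breeds did not overlap, but at so few reads this says little. TRPV6 had 1 read in each of the JH libraries and in LD3, and none in LD1 and LD2.

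On the supply side, SC5D makes the sterol from which both cholesterol and vitamin D3 derive. It was at 48.5, 57.9 and 74.2 RPKM in the JH libraries and at 176, 98.1 and 178 RPKM in the LD libraries, with no overlap. Its log2 JH/LD ratio was -1.29 (SE 0.31), and it missed the limit (adjusted p = 0.066 from limma). It was called in 2 of 14 alternative fits, without JH3 (adjusted p = 0.0486) and with limma's voom on the recovered reads (adjusted p = 0.0347). Among the electron donors, CYB5A, which assists microsomal P450 enzymes, had a log2 JH/LD ratio of 0.54 (SE 0.32, adjusted p = 0.422 from limma), and FDXR, the reductase of the mitochondrial P450 chain that serves CYP27A1, one of 0.27 (SE 0.33, adjusted p = 0.707 from limma). Neither was called.

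None of the 7 tested partners of VDR was called, as against 2.39% of all tested genes. All 7 had a log2 JH/LD ratio below 0, from -0.90 for the coactivator NCOA2 (adjusted p = 0.166 from limma) to -0.13 for the mediator subunit MED1 (adjusted p = 0.813 from limma). Among all tested genes 46.3% had a ratio below -0.01, and whether the 7 moved together was not tested. RXRB, which forms heterodimers with VDR, had a log2 ratio of -0.31 (SE 0.26, adjusted p = 0.582 from limma). DAB2, an adaptor for endocytosis of the GC complex, had a log2 JH/LD ratio of -0.71 (SE 0.24, adjusted p = 0.168 from limma). Of the factors described as regulators of CYP2R1 in mouse liver, ESRRA had a log2 JH/LD ratio of 0.65 (SE 0.26, adjusted p = 0.244 from limma) and the glucocorticoid receptor NR3C1 one of -0.24 (SE 0.23, adjusted p = 0.631 from limma). Every ESRRA value of JH lay above every LD value, and those of NR3C1 overlapped.

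**Figure D4:**
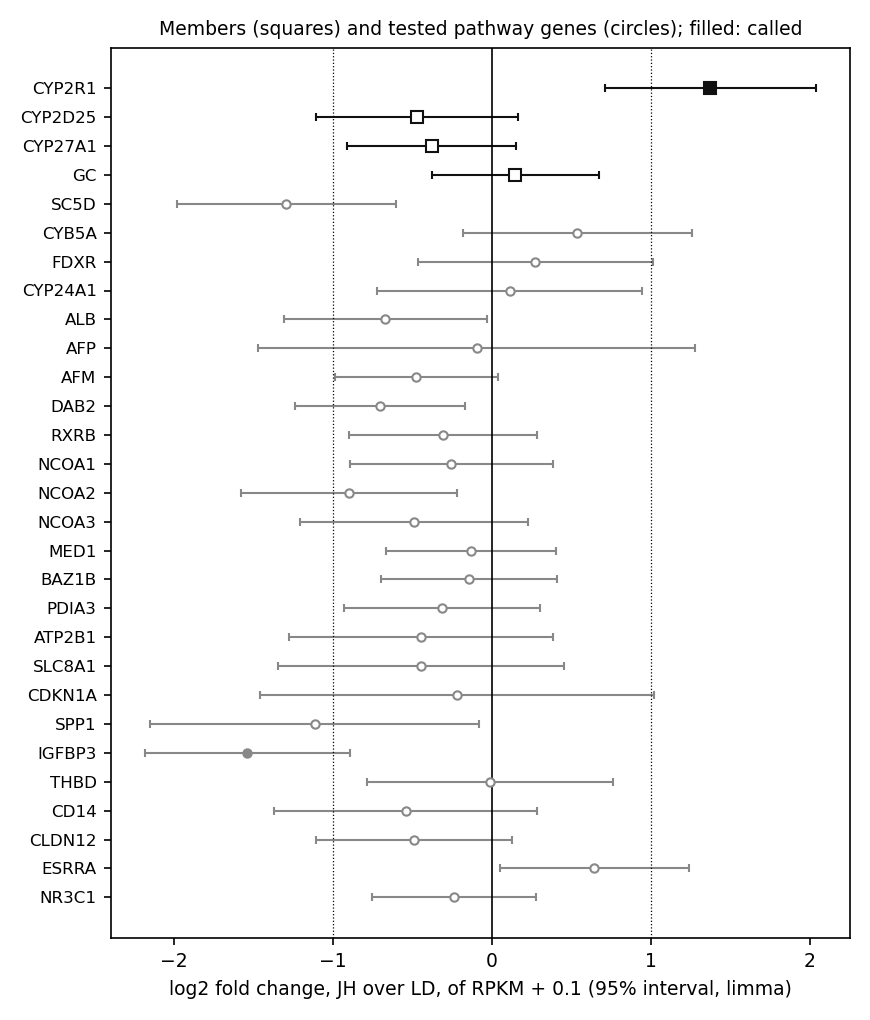
Log2 JH/LD ratio with its 95% interval from limma for the 4 tested members (squares) and the 25 tested pathway genes (circles), with filled symbols for called genes and dotted lines at the fold change limits. CYP2R1 at 1.38 and IGFBP3 at -1.54 are the filled symbols, and most other pathway genes lie between -1 and 0.

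The genes whose pattern over the 6 libraries was most like that of a member were named by Pearson's r of log2(RPKM + 0.1), as a description, since both breeds enter and 8 genes had an r above 0.99 with CYP2R1. For CYP2R1 these were C6H19orf33 (r = 0.995), RAB2A (r = 0.994) and HNRNPA2B1 (r = 0.994), of which C6H19orf33 was itself called, with a log2 JH/LD ratio of 2.09 (adjusted p = 0.0099 from limma, and 0.0504 without LD2). For CYP2D25 they were ADCY6 (r = 0.998), FCHSD2 (r = 0.992) and ARID1A (r = 0.987). For CYP27A1 they were LOC100738331 (r = 0.994), LOC102157971 (r = 0.985) and CCBE1 (r = 0.983). For GC they were CXCR6 (r = 0.991), CYP2C49 (r = 0.979) and AGXT2 (r = 0.979). No member appeared among the genes named for another.

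By gene order in RefSeq's Sscrofa11.1 annotation, the 5 members have 20 flanking protein-coding genes when 2 are taken on each side. Of these 9 could be tested, and none was called (a count chosen after the values of the members were seen). As only 2.39% of all tested genes were called, so small a count says little about these neighbours. On 1 side of CYP2R1 these were PDE3B, with a log2 JH/LD ratio of -0.42 (SE 0.27), and PSMA1, with 0.57 (SE 0.31), with adjusted p of 0.455 and 0.374 from limma. No gene on its other side could be tested.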

How the data were processed

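mRNA of the liver of 3 JH and 3 LD pigs was sequenced in 1 library per pig, and the sample titles gave breed and replicate. Single reads of 50 bp were filtered by the authors, mapped with Tophat v2.0.13 to the build Sus scrofa 10.2 and counted per gene with gfold v1.1.2, and the deposited values are RPKM. The miRNA libraries were not used here. RPKM of low genes are whole multiples of the value of 1 read. From these steps the read total that each library was scaled to (5744908 to 7914515) was recovered. The reads of 17921 of 19612 genes above 0 (91.4%) were recovered as well. A gene length was accepted where fewer than 0.01 chance matches were expected. Counting intervals (95%, exact Poisson) and floors of 3 reads cover counting error only. The reported fit of the deposited RPKM used limma 3.58.1 (lmFit, eBayes with trend) in R 4.3.3, with a pseudocount of 0.1, on genes that reached 0.5 RPKM in 3 or more libraries, and was tested on simulated data. The design fixed for counts was not needed, since no deposited file used here holds counts. Python 3.11.15 was used for tables and exact tests (numpy 2.4.6, scipy 1.17.1, pandas 2.3.3) and for figures (matplotlib 3.10.9).

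The members, the lists and the tests were chosen with earlier results of these data known. The genes named are the members, list genes that pass the threshold or account for their list, and the 3 genes most correlated with each tested member. PDE3B, PSMA1, CDX2, CDH17, LGALS4, SPP1, TRPV5 and TRPV6 were chosen after the values were seen. No protein or promoter sequence was used here. Alternatives were pseudocounts of 0.01 and 1, no filter, quantile normalization, median scaling, the replicate number as a block, no variance trend, each library left out in turn, other bases for the shares and, added after the values were seen, limma's voom on recovered reads.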

Additional observations from a re-analysis of the deposited data

How the results depend on the processing

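CYP2R1 kept its direction in all 14 alternative fits, with a log2 JH/LD ratio of 1.26 to 1.54 when 1 library was left out. It passed the threshold in 3 of them, under quantile normalization, under median scaling and without JH replicate 3. It was not called with a pseudocount of 0.01 (log2 ratio 1.44, adjusted p = 0.0559), with no filter (1.38, adjusted p = 0.0966), with the replicate number as a block (1.38, adjusted p = 0.0559), with no variance trend (1.38, adjusted p = 0.0568) and with voom on recovered reads (1.42, adjusted p = 0.0508). With a pseudocount of 1 its log2 ratio of 0.96 fell below the limit, which that scale itself lowers for low genes. Elsewhere the cause was not tested. CYP2D25 and CYP27A1 kept their direction and were called in none of the 14 fits. GC reversed under quantile normalization (-0.024). The number of all genes called was 310, 199 with a pseudocount of 0.01, 200 with no filter and 63 to 403 with 1 library left out. The pathway genes called were 1, 0 without a variance trend, 2 with voom (IGFBP3 and SC5D) and 0 to 2 with 1 library left out. The share of CYP2R1 stayed higher in JH by 0.180 to 0.214 percentage points with 1 library left out. The difference in the share of CYP2D25 ranged from -3.23 to 0.56 and that of CYP27A1 from -0.77 to 3.05 percentage points, with reversals without JH3 (0.56 and -0.77) and without LD2 (0.08 and -0.26), and was -0.79 for CYP27A1 when CYP2D25 was left out of the sum. The deviations of same-numbered libraries from their breed means correlated with r of -0.02, 0.05 and 0.18, so the numbers were not taken to pair the pigs, and the block was kept as an alternative only. Depth limits CYP2R1 in LD, with 17 to 22 reads per library, and VDR in all libraries.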
